A study of Mus musculus with 3 samples.

Results

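Small leucine-rich proteoglycans are secreted matrix proteins, and 9 genes of this family were followed across the cells of the mouse ascending aorta. They were *Dcn* (decorin), *Bgn* (biglycan), *Aspn* (asporin), *Lum* (lumican), *Fmod* (fibromodulin), *Prelp*, *Omd* (osteomodulin), *Ogn* (osteoglycin, or mimecan) and *Podn* (podocan). The genes were found by symbol in the gene list of the deposited files, and all 9 were present, each on a single row among 32285 genes. Ascending aortas were taken from male C57BL/6J mice at P45, that is, postnatal day 45, and the tissue of each group was pooled, digested and run as 1 droplet library. The WT library came from wild-type littermates. The mgR library came from mice homozygous for mgR, a germline hypomorphic allele of *Fbn1* that lowers fibrillin-1 in every cell type and models Marfan syndrome (Fbn1mgR/mgR). The mgR-LOS library came from Fbn1mgR/mgR mice that drank losartan, an antagonist of the angiotensin II type I receptor, at 0.6 g/L starting on P16. Whether untreated mgR mice were given vehicle is not stated in the labels.

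The members of this family share a core of leucine-rich repeats that binds collagen fibrils and sets their diameter and spacing. *Dcn* and *Bgn*, of class I, carry chondroitin or dermatan sulfate chains and bind TGF-β, whereas *Aspn*, of the same class, lacks such chains in its usual form. *Lum*, *Fmod*, *Prelp* and *Omd* belong to class II, of which *Lum*, *Fmod* and *Omd* can carry keratan sulfate and *Prelp* anchors collagen to basement membranes. *Ogn* belongs to class III and *Podn* to a later-named class. In arteries decorin is best known from the adventitia and biglycan from the media, and loss of biglycan is known to cause aortic aneurysm and dissection.

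A barcode, the tag of a droplet that usually holds 1 cell, was kept with 600 to 5000 genes and at most 10% mitochondrial unique molecular identifiers (UMIs), which left 5361 WT, 8076 mgR and 12721 mgR-LOS barcodes with median UMI counts of 13636, 12410.5 and 8334. Kept barcodes were gated by panels of marker genes that held none of the 9 members, for smooth muscle cells (SMC), fibroblasts, endothelial cells (EC), immune cells and minor types, and a barcode past several panels was set aside as mixed. Barcodes past no panel were left out of all gates. The SMC gate held 3643 WT, 3076 mgR and 7863 mgR-LOS barcodes, the fibroblast gate 1271, 2324 and 3071, the EC gate 106, 224 and 180, and the immune gate 116, 1578 and 720. Barcodes within 1.5-fold of the SMC limit numbered 72, 542 and 453, and of the fibroblast limit 153, 551 and 357. The summed SMC panel (*Acta2*, *Myh11*, *Tagln*, *Cnn1*, *Myl9* and *Tpm2*) stood between 49631 and 52622 CPM (UMIs scaled to a library-gate sum of 1000000) in the SMC gate and between 869 and 2066 CPM in the fibroblast, EC and immune gates, which describes the gating and is no independent check of the labels. *Fbn1* was at 250.5 CPM in the WT SMC gate, at 77.9 CPM in mgR and at 67.7 CPM in mgR-LOS, so the 2 libraries labelled as mutant carried less of the targeted gene. Between 11 and 34 kept barcodes were shared by any pair of libraries. With 1 pooled library per group variation among animals is unknown, no test between groups was possible, and all intervals given are exact 95% intervals for counting error only. UMIs were counted at the 3′ end and are not scaled by gene length.

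The gates differed most in which members they carried. Fibroblast-gated barcodes had higher levels of 7 of 9 members than SMC-gated barcodes by at least 1.5-fold in all 3 libraries, where 19.7% of 5872 genes with at least 20 CPM were higher by this rule and 11.6% lower (31.4% in all). The exceptions were *Bgn* and *Ogn*. Against EC-gated barcodes all 9 were higher in the fibroblast gate, with a background of 13.1% higher and 17.9% lower (31% in all). All 9 members together made up 22537 CPM in the fibroblast gate of WT, 17169 CPM in mgR and 20238 CPM in mgR-LOS. In the SMC gate their sum was 4224, 4878 and 4152 CPM, and in the EC gate 2664, 2726 and 3646 CPM.

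**Figure D1:**
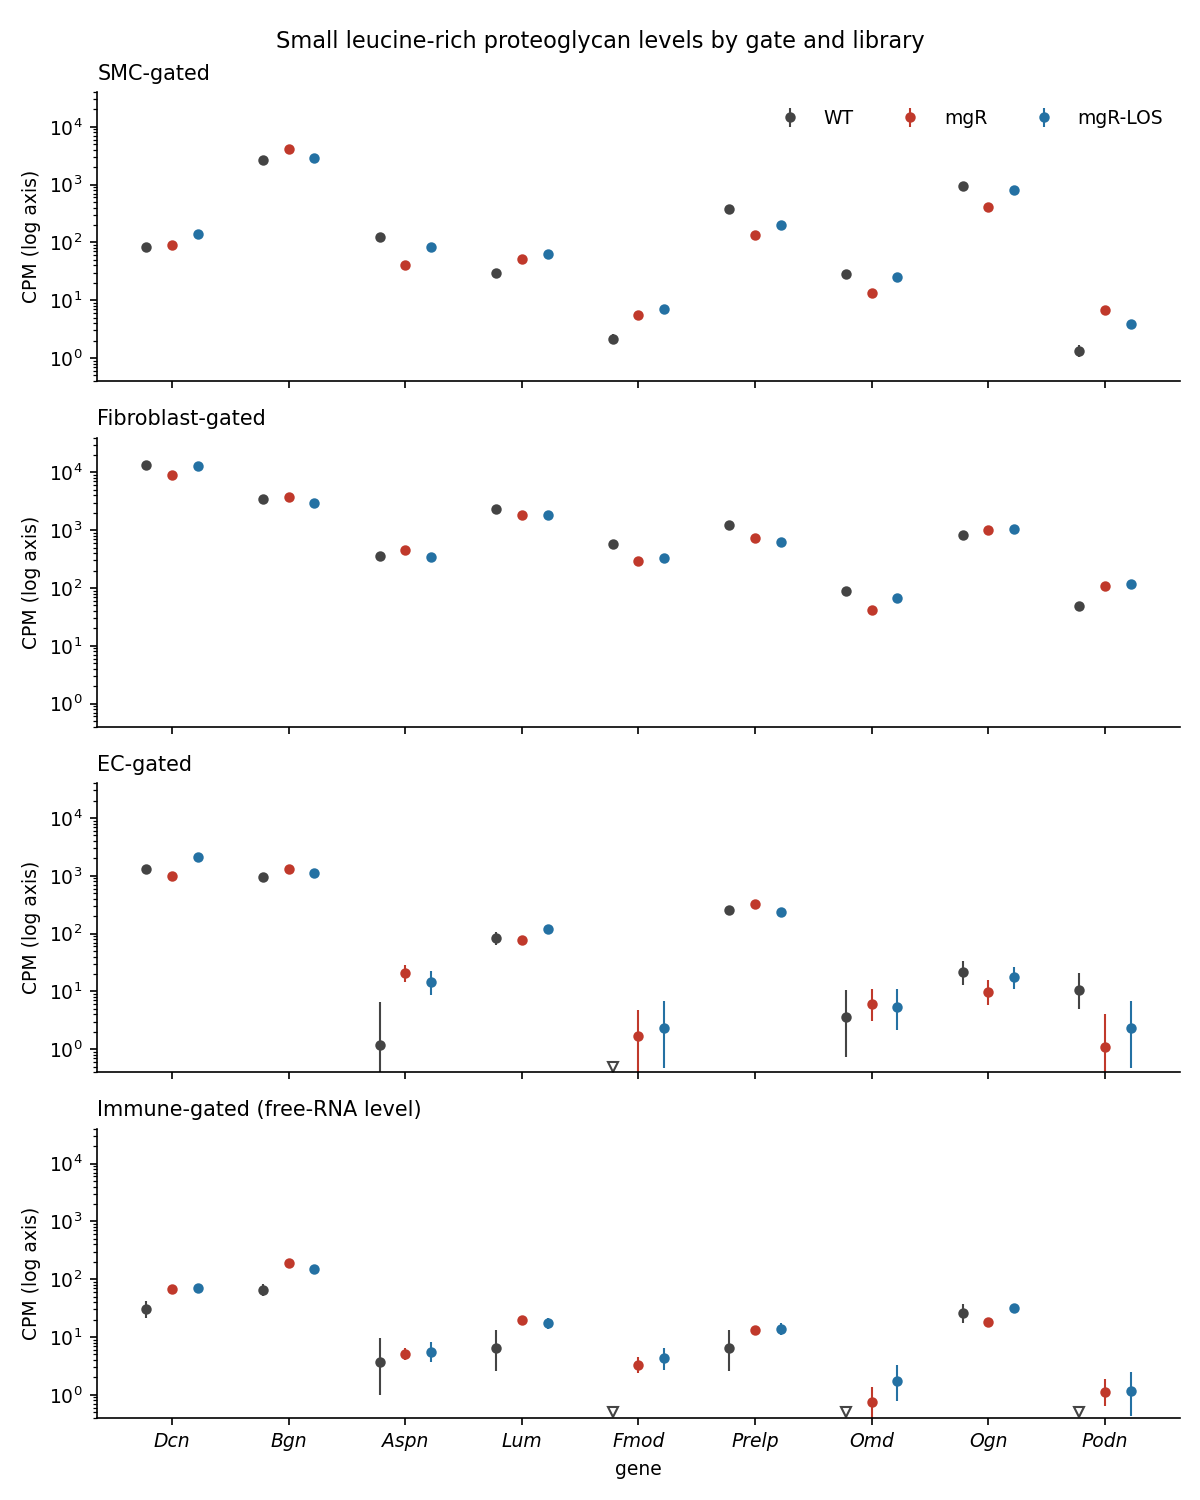
Level of each of the 9 genes in CPM on a log axis, by gate (rows) and library (colors), with exact 95% Poisson intervals. Open triangles at the lower edge mark genes with no UMI. *Bgn* and *Ogn* reached similar levels in SMC-gated and fibroblast-gated WT barcodes, whereas *Dcn*, *Lum*, *Fmod* and *Podn* were far higher in the fibroblast gate.

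*Dcn* led the family in fibroblasts. It stood at 13525 CPM in fibroblast-gated WT barcodes, 8888 CPM in mgR and 12954 CPM in mgR-LOS. In SMC-gated barcodes it was at 82.2, 91.8 and 141.6 CPM, so the fibroblast level was 165-, 96.9- and 91.5-fold the SMC level. Immune cells were taken to make no decorin, and the immune gate held 30.5, 68.6 and 71.1 CPM of *Dcn*, on 33, 907 and 368 UMIs. This level is used here as a stand-in for free RNA. Called doublets made up 2.59%, 4.63% and 9.17% of that gate, and whether its *Dcn* is free RNA was not tested. The SMC level was 2.70-, 1.34- and 1.99-fold that of the immune gate, and the 10% of SMC-gated barcodes richest in *Dcn* held 81.3%, 78.1% and 68.8% of its UMIs. The part of free RNA in the SMC level was not tested. After thinning each barcode to 1000 UMIs, 99.3%, 97.9% and 99.3% of fibroblast-gated barcodes had a *Dcn* UMI, against 5.66%, 7.29% and 9.29% of SMC-gated and 0.862%, 4.76% and 7.22% of immune-gated barcodes. Without thinning these shares were 99.9%, 99.8% and 99.9%, then 28.9%, 35.4% and 42.9%, and then 25%, 25.9% and 36.2%. Median UMI counts were 14388, 15206 and 8537 in the SMC gate and 8596.5, 7863.5 and 6559.5 in the immune gate.

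*Bgn* was the leading member in SMCs. Its level there was 2651 CPM in WT, 4121 CPM in mgR and 2832 CPM in mgR-LOS, and the fibroblast levels of 3528, 3789 and 2928 CPM were 1.33-, 0.919- and 1.03-fold of these. Since SMCs were more numerous, 70.4%, 57.0% and 66.7% of all *Bgn* UMIs of kept barcodes lay in the SMC gate. *Bgn* made up 62.8% of the family's UMIs in SMC-gated WT barcodes, 84.5% in mgR and 68.2% in mgR-LOS. *Ogn* was the second member in SMCs, with 933 CPM in WT, 410.5 CPM in mgR and 793 CPM in mgR-LOS, and its fibroblast levels were 832, 993 and 1053 CPM. In WT the SMC level of *Ogn* was the higher one, with a fibroblast-over-SMC ratio of 0.892 (0.874 to 0.910). In mgR that ratio was 2.42 (2.38 to 2.46), and in mgR-LOS it was 1.33 (1.31 to 1.35). The SMC gate accordingly held 78.5% of all *Ogn* UMIs in WT, 37.2% in mgR and 62.9% in mgR-LOS.

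*Prelp*, *Aspn* and *Omd* were found in both cell types. *Prelp* was at 374, 136 and 200.7 CPM in the SMC gate and at 1222, 742 and 636 CPM in the fibroblast gate. *Aspn* was at 123, 41.1 and 84.9 CPM in SMC-gated and at 352, 450.4 and 348 CPM in fibroblast-gated barcodes. *Omd* was the scarcest of these, with 28.0, 13.2 and 25.4 CPM in SMC-gated and 90.3, 42.5 and 66.2 CPM in fibroblast-gated barcodes. The SMC level exceeded that of the immune gate by 10.2- to 57.8-fold for *Prelp* and 7.98- to 33.3-fold for *Aspn*. The highest ratios, both in WT, rested on 7 immune-gated UMIs for *Prelp* (28.1 to 144) and 4 for *Aspn* (13.0 to 122). *Lum*, *Fmod* and *Podn* were far higher in fibroblasts than in SMCs. *Lum* was at 2366, 1863 and 1799 CPM in fibroblasts and at 29.6, 51.9 and 63.2 CPM in SMCs, where the immune gate held 6.47, 19.8 and 17.4 CPM. *Fmod* was at 573, 293 and 336 CPM in fibroblasts and at no more than 7.01 CPM in SMCs. *Podn* was at 48.2, 107.0 and 117.2 CPM in fibroblasts and at no more than 6.76 CPM in SMCs.

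**Figure D2:**
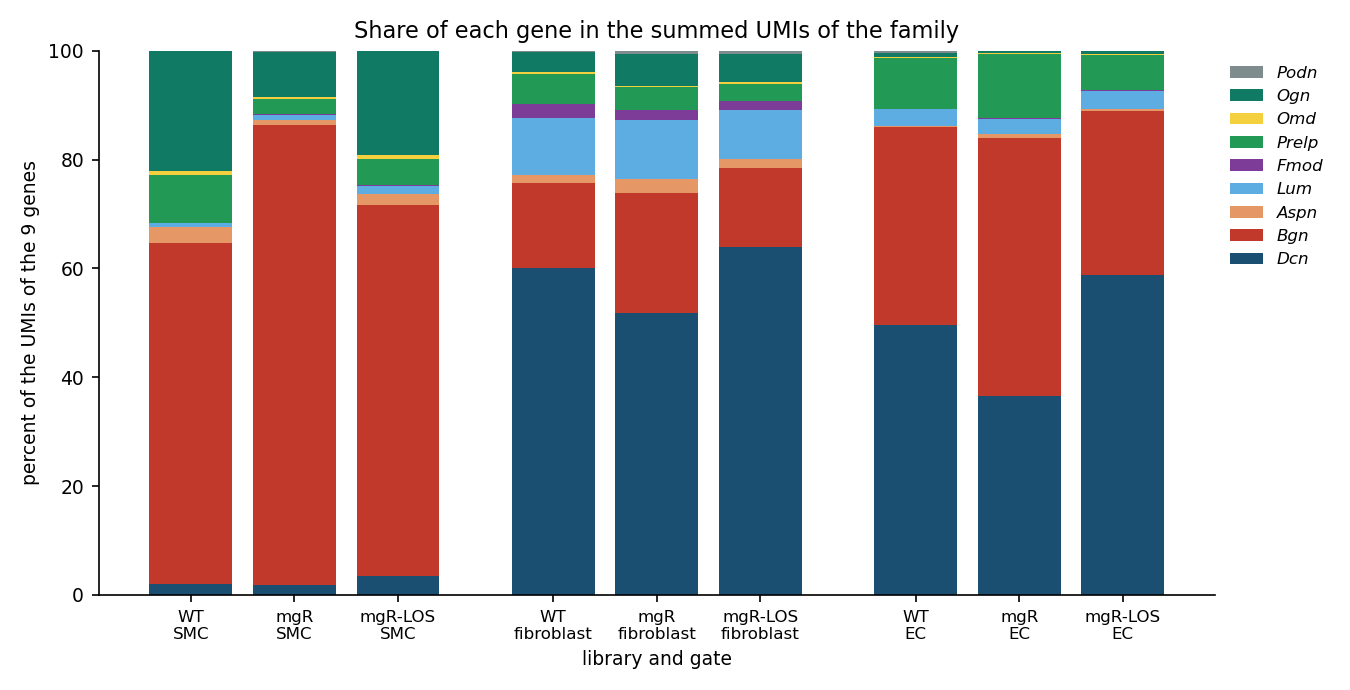
Percent of the summed UMIs of the 9 genes that each gene contributed, by library and gate. *Dcn* contributed 60.0%, 51.8% and 64.0% in fibroblast-gated WT, mgR and mgR-LOS barcodes but 1.95%, 1.88% and 3.41% in SMC-gated barcodes, where *Ogn* shrank from 22.1% in WT to 8.42% in mgR.

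The comparison of mgR with WT asks what the *Fbn1* mutation goes with in each cell type, and its clearest pattern lay in SMCs. Of the 7 members with at least 20 CPM in either library, 6 differed by at least 1.5-fold in the SMC gate (8.59% of 5480 genes did, 4.95% higher and 3.65% lower). The members' median ratio was 0.472 and that of all genes 0.991. The 4 lower members were *Aspn*, *Prelp*, *Ogn* and *Omd*, and the 2 higher ones were *Lum* and *Bgn*. *Aspn* in mgR was 0.334 of WT (0.317 to 0.351), *Prelp* 0.364 (0.354 to 0.374), *Ogn* 0.440 (0.433 to 0.447) and *Omd* 0.472 (0.429 to 0.518). Over the 10 other settings that gave a ratio, from gate limits to doublet removal, these ratios lay between 0.301 and 0.487. *Bgn* in mgR was 1.55 of WT (1.54 to 1.57), and 1.52 to 1.58 over the same settings.

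For *Ogn* and *Bgn* the typical SMC-gated barcode differed as the sums did, and for *Prelp* it did so in the order of the libraries only. The median barcode had 868 CPM of *Ogn* in WT, 334 CPM in mgR and 679.5 CPM in mgR-LOS. For *Prelp* the medians were 341, 59.4 and 124 CPM, and for *Bgn* 2523, 3940.0 and 2606 CPM. Median UMI counts of the SMC gate were 15206 in mgR and 8537 in mgR-LOS. At these depths both *Prelp* medians lie near the value of a single UMI. The gap between these 2 medians therefore carries the difference in depth and is not read as a difference in level. The upper quartile of *Ogn* in mgR, at 604 CPM, lay below the WT median. After thinning, 57.6% of WT, 32.2% of mgR and 49.0% of mgR-LOS barcodes had an *Ogn* UMI (98.4%, 88.9% and 91.1% unthinned). Thinned shares with a *Prelp* UMI were 30.4%, 12.3% and 16.8% (93.6%, 55.8% and 61.2% unthinned). The immune gate had 5.17%, 2.16% and 2.92% for *Ogn* and 0.862%, 1.27% and 1.39% for *Prelp* after thinning.

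**Figure D3:**
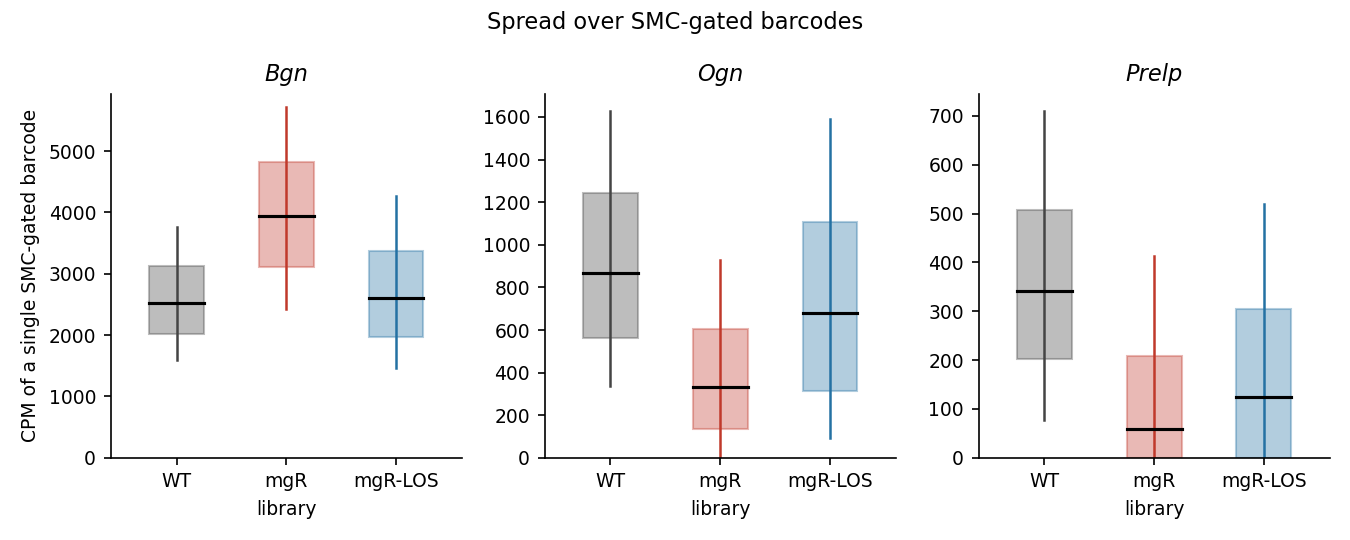
CPM of single SMC-gated barcodes for *Bgn*, *Ogn* and *Prelp* by library. Black lines mark medians, boxes the middle quartiles and vertical lines the 10th to 90th percentile. The mgR median is the lowest of the 3 for *Ogn* (334 CPM) and *Prelp* (59.4 CPM) and the highest for *Bgn* (3940.0 CPM). The *Prelp* medians of mgR and mgR-LOS lie near the value of a single UMI.

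The higher *Lum* level in mgR SMCs was less secure. Its ratio was 1.76 (1.65 to 1.87), but it was 1.39 after subtracting the immune-gated level, 1.19 with gate limits set 2 times as high and 1.09 with at most 5% mitochondrial UMIs. *Dcn* stood at 1.12 of WT (1.07 to 1.16) and at 0.447 after the same subtraction, so no direction is given for it. A part of the SMC gate past a summed panel of *Vcam1*, *Spp1* and *Timp1* was larger in mgR. SMC-gated barcodes within 1.5-fold of that panel's limit numbered 33, 275 and 194. The part held 30 WT, 360 mgR and 184 mgR-LOS barcodes, or 0.823%, 11.7% and 2.34% of SMC-gated barcodes. Its *Dcn* level was 519, 212 and 553 CPM and its *Lum* level 489, 157 and 335 CPM, several times the levels of 54.2, 57.9 and 107 CPM (*Dcn*) and 13.4, 24.6 and 41.8 CPM (*Lum*) in SMC-gated barcodes past none of the 3 SMC panels. Called doublets made up 13.3%, 7.5% and 10.3% of barcodes past that panel, against 2.17%, 1.78% and 4.47% past none. Its genes were themselves higher in fibroblasts, with *Vcam1* at 395 CPM, *Spp1* at 265 CPM and *Timp1* at 221 CPM in WT fibroblasts against 13.5, 1.08 and 16.7 CPM in WT SMCs, and the part of either in these levels was not tested. The other 2 SMC panels were *Rbp4* with *Wif1* and *Tnnt2* with *Tcap*, and their shares differed too. The *Rbp4* panel alone held 20.7%, 1.46% and 1.97% of SMC-gated barcodes and the *Tnnt2* panel alone 27.4%, 27.5% and 33.7%. Barcodes past both made up 13.1%, 0.813% and 0.763%. The group past none of the 3 held 1383 WT, 1800 mgR and 4811 mgR-LOS barcodes, and in it *Ogn* in mgR was 0.437 of WT, *Prelp* 0.337, *Aspn* 0.364, *Omd* 0.428 and *Bgn* 1.53. Past the *Vcam1* panel, on 30 WT barcodes, *Ogn* was at 0.823 of WT (0.704 to 0.967), *Prelp* at 0.865 (0.686 to 1.11) and *Bgn* at 1.14 (1.08 to 1.2), all within 1.5-fold, and *Aspn* at 0.406 and *Omd* at 0.448.

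The comparison of mgR-LOS with mgR asks what losartan treatment goes with in the mutant, and it uses the same mgR library again. In the SMC gate 4 of 7 members were higher in mgR-LOS by at least 1.5-fold, against 3.61% of genes higher and 3.68% lower (7.29% in all). *Aspn* in mgR-LOS was 2.07 of mgR (1.96 to 2.18), *Ogn* 1.93 (1.90 to 1.96), *Omd* 1.92 (1.75 to 2.11) and *Dcn* 1.54 (1.49 to 1.60). The *Dcn* ratio was 1.38 with at most 5% mitochondrial UMIs and 1.01 when barcodes were averaged with equal weight, and 3.05 after subtracting the immune-gated level, so its call rests on the setting. *Prelp* at 1.48 (1.43 to 1.52) and *Bgn* at 0.687 (0.683 to 0.691) lay just inside the limits of 1.5 and its inverse, 0.667. Set against WT, mgR-LOS SMCs had 0.851 of the *Ogn* level, 0.905 of *Omd*, 0.689 of *Aspn*, 0.537 of *Prelp* and 1.07 of *Bgn*. Of these 5 genes *Prelp* alone lay past 1.5-fold from WT. In this comparison 3 of 7 members differed (4.2% of genes were higher and 3% lower, 7.19% in all), the other two being *Lum* at 2.14 and *Dcn* at 1.72. With at most 5% mitochondrial UMIs these 2 ratios were 1.12 and 0.974. The mgR-LOS matrix was written by a later CellRanger version than the other 2 matrices, and this difference and the treatment cannot be told apart.

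**Figure D4:**
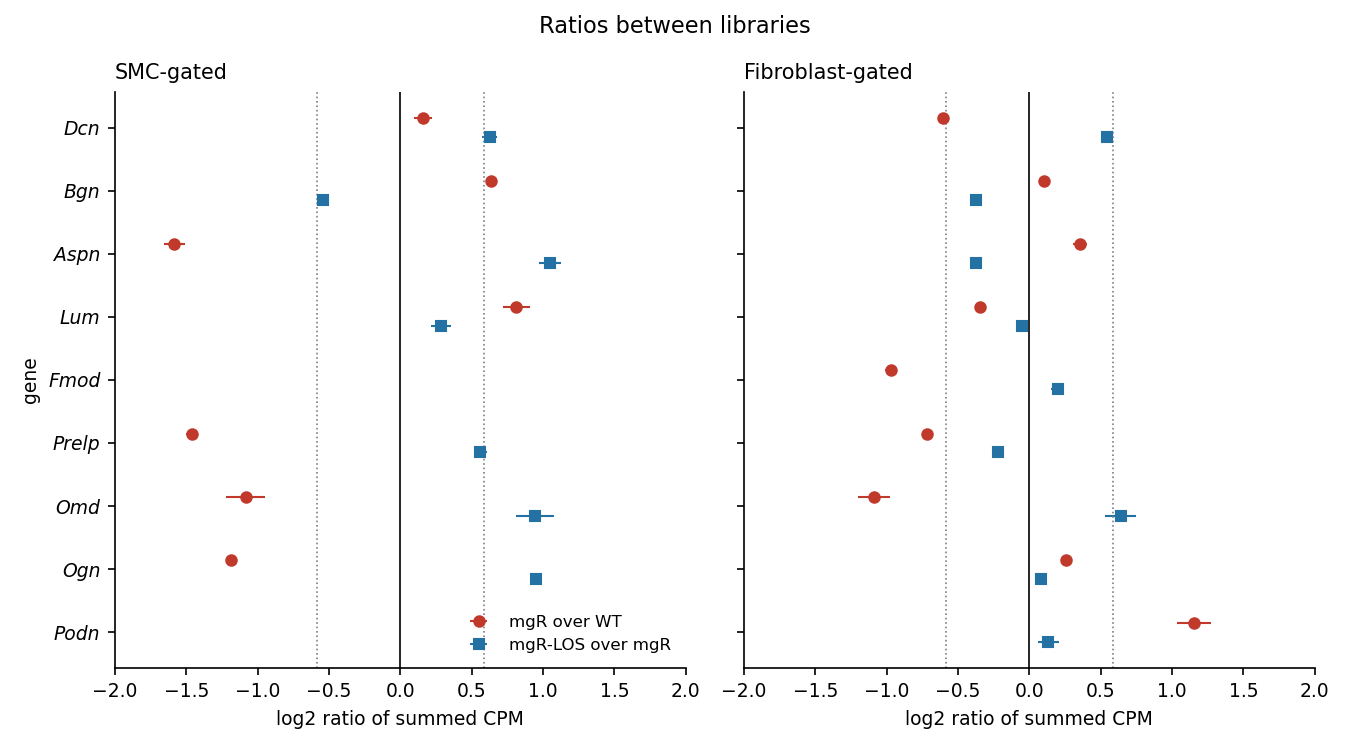
Log2 ratio of summed CPM for mgR over WT (circles) and mgR-LOS over mgR (squares) in SMC-gated (left) and fibroblast-gated (right) barcodes, with exact 95% intervals for counting error. Dotted lines mark 1.5-fold, and genes under 20 CPM in both libraries are left out. *Aspn*, *Prelp*, *Omd* and *Ogn* lie on opposite sides of zero in the 2 comparisons in SMCs, which share the mgR library.

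Of the 4 lower members in SMCs, 3 are neighbors in the genome. *Aspn* (chromosome 13 from 49544443 to 49567565), *Omd* (49582462 to 49592822) and *Ogn* (49608046 to 49624501) lie in a row on the plus strand, 14.9 and 15.2 kb apart, in the GENCODE annotation of GRCm38, the build of the deposited counts. *Ecm2*, a related leucine-rich gene fixed among the other family members, precedes them in that row and was at 195, 84.4 and 161 CPM in SMCs, or 0.434 (0.418 to 0.450) of WT in mgR. Beyond this row, *Bicd2* stood at 1.14 of WT and *Iars* at 1.16, and *Nol8* was at 16.7 CPM in WT and 15.7 CPM in mgR. The row of *Ecm2*, *Aspn*, *Omd* and *Ogn* lies inside *Cenpp* on the opposite strand, which had 0.503 to 0.694 CPM in SMCs. *Prelp* (chromosome 1 from 133910304 to 133921414, minus strand) is followed on its strand by *Optc* (opticin), another family member, at 229.8, 101 and 151 CPM and 0.440 of WT in mgR. Other genes expressed near *Prelp* and *Fmod* were *Atp2b4*, at 0.834 of WT, and *Btg2*, at 0.600. *Optc* had 3.16 CPM in WT fibroblasts, in which *Prelp* was at 1222 CPM. In the fibroblast gate as a whole the row on chromosome 13 did not share a direction. There mgR stood at 0.470 of WT for *Omd* and 0.741 for *Ecm2*, but at 1.28 for *Aspn* and 1.19 for *Ogn*. Among fibroblasts past only the panel named for *Comp* and *Chad*, described below, *Aspn* at 0.538, *Ogn* at 0.624 and *Omd* at 0.363 were all lower in mgR. In the 3 other fibroblast groups *Aspn* was above WT. *Fmod*, on chromosome 1 from 134037254 to 134048277, stayed under 20 CPM in SMCs. The other 7 of 9 listed family members, among them *Epyc*, *Kera* and *Chad*, were under 20 CPM in SMCs. *Dcn* (chromosome 10 from 97479609 to 97518143) and *Lum* (97565128 to 97572703) are neighbors at a distance of 47.0 kb, *Bgn* lies on chromosome X from 73483602 to 73495933, and *Podn* lies on chromosome 4 from 108014791 to 108096445, where it overlaps *Scp2* on the same strand.

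The 250 bases before the start of the 4 members that were lower in mgR SMCs are shown because these genes differed together in that gate. They come from RefSeq (GRCm38.p6), read 5′ to 3′ on the gene's strand, and capitals mark TATAAA (searched on the gene's strand) and CAGAC, a short Smad-binding word (searched on both strands). TATAAA was found in 8.12% and CAGAC in 42.1% of 27025 promoters cut to the same length, and a CArG box, the binding motif of serum response factor, in 1.40%. RefSeq promoters of 7 of the 9 members were at hand, and *Dcn* and *Lum* had none in that table.
Ogn, chr13:49607765-49608014, plus strand: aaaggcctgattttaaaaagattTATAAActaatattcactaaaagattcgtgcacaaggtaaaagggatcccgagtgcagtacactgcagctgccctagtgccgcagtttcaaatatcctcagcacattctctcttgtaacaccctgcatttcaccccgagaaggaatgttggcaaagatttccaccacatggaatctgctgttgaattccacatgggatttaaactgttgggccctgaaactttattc
Aspn, chr13:49544193-49544442, plus strand: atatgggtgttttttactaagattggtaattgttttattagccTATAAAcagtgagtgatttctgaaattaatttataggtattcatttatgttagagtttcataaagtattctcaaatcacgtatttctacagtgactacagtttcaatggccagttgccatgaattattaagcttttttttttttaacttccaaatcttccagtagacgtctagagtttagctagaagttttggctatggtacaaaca
Omd, chr13:49582212-49582461, plus strand: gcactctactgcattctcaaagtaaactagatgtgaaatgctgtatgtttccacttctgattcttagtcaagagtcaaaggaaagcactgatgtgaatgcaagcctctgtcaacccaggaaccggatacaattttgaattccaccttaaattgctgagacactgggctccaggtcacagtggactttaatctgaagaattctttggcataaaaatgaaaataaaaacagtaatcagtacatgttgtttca
Prelp, chr1:133921402-133921651, minus strand: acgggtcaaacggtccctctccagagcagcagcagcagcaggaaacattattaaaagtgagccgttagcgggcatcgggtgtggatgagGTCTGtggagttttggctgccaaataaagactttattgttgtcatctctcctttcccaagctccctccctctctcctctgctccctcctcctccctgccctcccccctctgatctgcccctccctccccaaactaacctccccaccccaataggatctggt
*Ogn* and *Aspn* held TATAAA, at positions -227 and -207 from the start, and *Prelp* held CAGAC at position -161. *Omd* held neither word, and none of the 7 members with a sequence held a CArG box in this window. These matches describe the letters only.

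In fibroblasts *Omd* and *Prelp* were lower in mgR than in WT, as in SMCs, and *Dcn*, *Fmod* and *Podn* differed as well. Of 9 members 5 were past 1.5-fold, against 6.9% of 6148 genes higher and 3.69% lower (10.6% in all). *Podn* was higher, at 2.22 of WT (2.04 to 2.42), whereas *Omd* at 0.470 (0.434 to 0.509), *Fmod* at 0.511 (0.496 to 0.527), *Prelp* at 0.607 (0.595 to 0.620) and *Dcn* at 0.657 (0.653 to 0.661) were lower. *Ogn* at 1.19 and *Aspn* at 1.28, lower in mgR SMCs, were above WT within 1.5-fold in the mgR fibroblast gate as a whole. This did not hold past every fibroblast panel described below. *Dcn* and *Prelp* moved inside the limits with gate limits set 2 times as high (0.718 and 0.670) and when barcodes were averaged with equal weight (0.708 and 0.712). In mgR-LOS against mgR only *Omd* was past 1.5-fold, at 1.56 (1.45 to 1.68), where 2.79% of genes were higher and 3.38% lower (6.17% in all), and *Dcn* stood at 1.46 (1.45 to 1.47). With gate limits 2 times as high the *Omd* ratio was 1.41. Against WT, mgR-LOS fibroblasts had 3 of 9 members past 1.5-fold (6.15% of genes were higher and 3.89% lower, 10% in all), with *Podn* at 2.43, *Fmod* at 0.586 and *Prelp* at 0.520. Averaged over barcodes, this *Fmod* ratio was 0.682, inside the limits.

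Fibroblasts of different kinds carried different members. Fibroblast-gated barcodes were divided by 3 panels named for *Pi16*, *Gdf10*, and *Comp* with *Chad*. A barcode counted for a panel only where it passed none of the others. The panels so held 313, 211 and 179 WT barcodes, 546, 845 and 109 mgR barcodes, and 586, 1126 and 119 mgR-LOS barcodes. Barcodes past several of them, 207 WT, 231 mgR and 297 mgR-LOS, or 16.3%, 9.94% and 9.67% of the fibroblast gate, were left out of these groups. The panels are ranges of a score and not types, and 36 WT, 105 mgR and 72 mgR-LOS barcodes lay within 1.5-fold of the *Comp* and *Chad* limit, 229, 260 and 309 of the *Pi16* limit and 229, 328 and 457 of the *Gdf10* limit. The *Comp* and *Chad* panel, named for genes of tendon and cartilage matrix, had the highest *Dcn* (20070.1 CPM in WT, 18068 CPM in mgR and 20913 CPM in mgR-LOS), *Fmod* (2045, 1436 and 1706 CPM) and *Prelp* (3304, 2855 and 3011 CPM). Its *Lum* was also highest, at 4227, 4115 and 2871 CPM, and its *Podn* lowest, at 3.78, 11.3 and 4.6 CPM. The *Pi16* panel had the lowest *Fmod*, at 34.8, 17.3 and 19.5 CPM, and the highest *Aspn* in mgR and mgR-LOS, at 805 and 653 CPM. The *Gdf10* panel had the highest *Podn*, at 129.7, 201 and 232 CPM. This panel sums *Gdf10*, *Hsd11b1*, *Cxcl14* and *Fmo2*, and *Fmo2* was its largest gene in the fibroblast gate. There *Fmo2* was at 558, 720 and 995 CPM and *Gdf10* at 184, 578 and 373 CPM. *Fmo2* was also at 651 CPM in WT SMCs, so the panel is not a score of *Gdf10* alone. *Ogn* was highest in the *Gdf10* panel in WT (1310.2 CPM) and in the *Pi16* panel in mgR (1327 CPM) and mgR-LOS (1497 CPM).

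**Figure D5:**
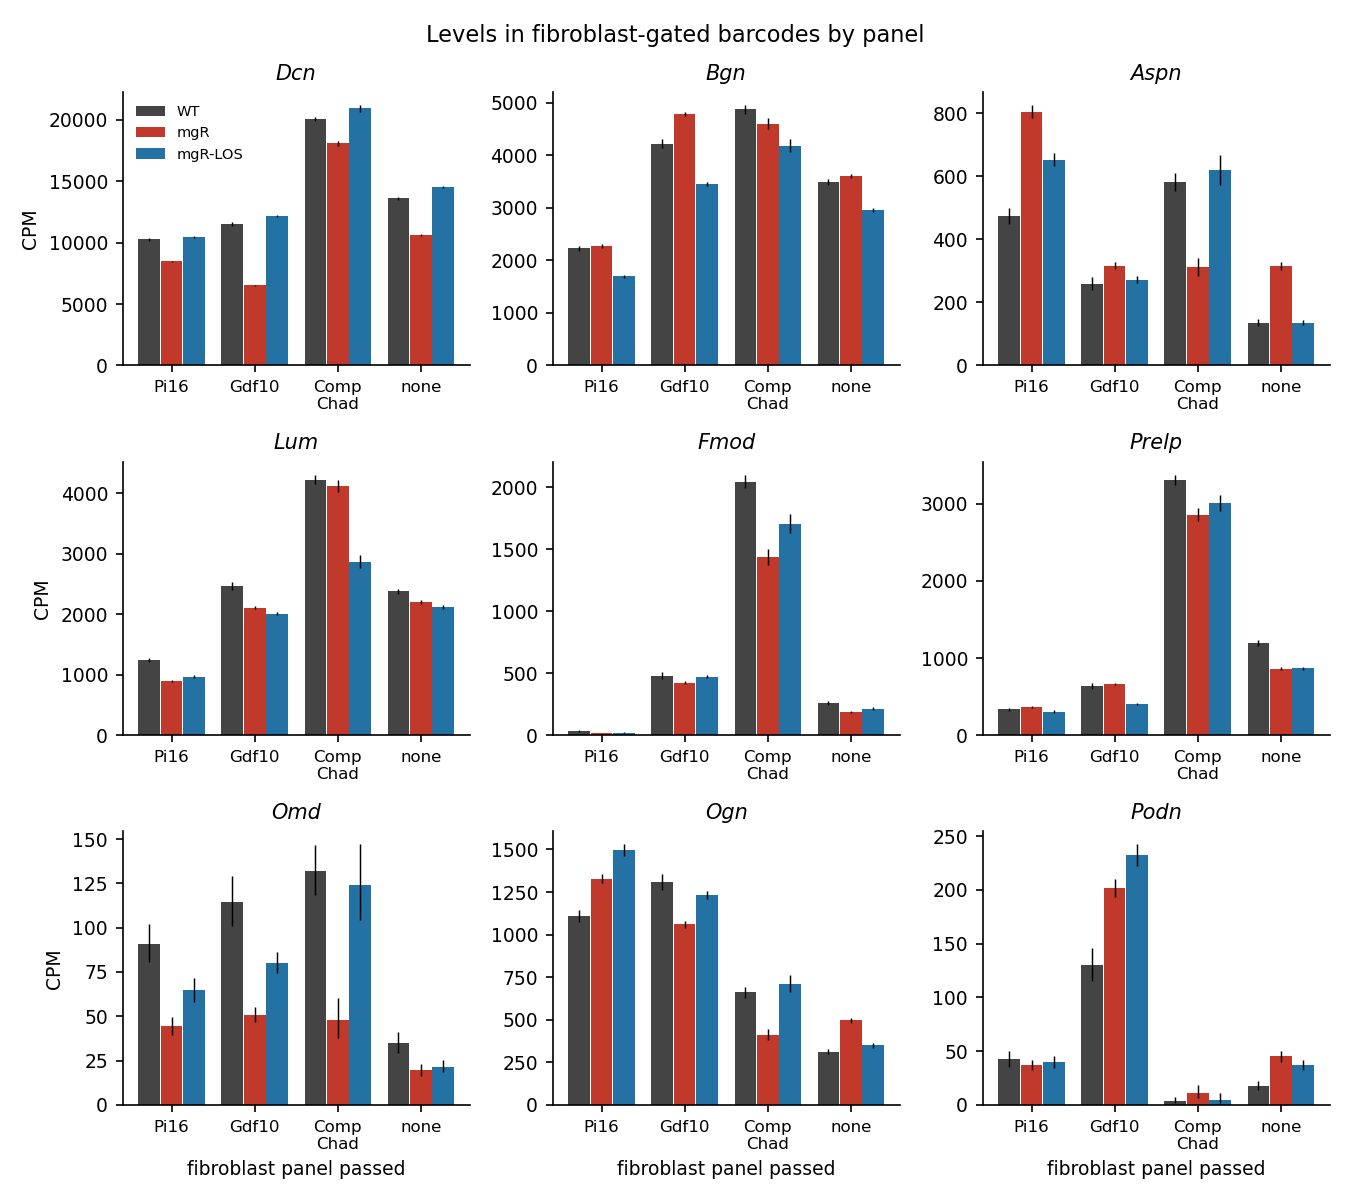
CPM of each gene in fibroblast-gated barcodes past the *Pi16*, *Gdf10* or *Comp* and *Chad* panel alone or past none of them, by library, with exact 95% Poisson intervals and a separate axis per gene. *Fmod* and *Prelp* are highest past the *Comp* and *Chad* panel (2045 and 3304 CPM in WT) and *Podn* past the *Gdf10* panel (129.7 CPM in WT).

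The shares of these panels also differed between libraries. The *Comp* and *Chad* panel held 14.1% of WT, 4.69% of mgR and 3.87% of mgR-LOS fibroblast-gated barcodes, and the *Gdf10* panel 16.6%, 36.4% and 36.7%. *Chad*, itself a member of the wider family and of this panel, was at 455, 45.5 and 62.5 CPM in the fibroblast gate. Among the 3 panels and the barcodes past none of them, *Fmod* in mgR ranged from 0.495 to 0.881 of WT and *Prelp* from 0.722 to 1.07, nearer to equality than in the gate as a whole for *Prelp* in all 4. *Dcn* was lower in mgR in all 4, at 0.568 to 0.9 of WT, and higher in mgR-LOS than in mgR in all 4, at 1.16 to 1.86. *Omd* was lower in mgR in all 4 as well, at 0.363 to 0.564. *Podn* past the *Gdf10* panel was at 1.55 of WT in mgR. *Aspn* differed in direction among them, at 1.70 of WT past the *Pi16* panel and 0.538 past the *Comp* and *Chad* panel. In the fibroblast gate as a whole, the summed marker panel that set the gate was also lowest in mgR. It stood at 4606 CPM in WT, 3735 CPM in mgR and 5167 CPM in mgR-LOS. Whether the *Dcn* differences are separate from those of this panel was not tested.

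EC-gated barcodes were few, and *Ogn*, *Aspn*, *Omd*, *Podn* and *Fmod* rested on few UMIs there, whereas *Dcn* had 1104, 1796 and 2796. *Dcn* was at 1322, 994 and 2146 CPM, *Bgn* at 971, 1294 and 1096 CPM and *Prelp* at 251, 322 and 240.3 CPM. *Prelp* was 38.9-, 24.0- and 17.3-fold the immune level in the EC gate, with 13.2%, 18.5% and 16.1% of thinned barcodes carrying it (45.3%, 48.7% and 43.9% unthinned). The 38.9-fold value rested on 7 immune-gated WT UMIs (18.5 to 97.9). *Dcn* was uneven, with a median barcode at 0 CPM in WT and mgR and 197 CPM in mgR-LOS, and the 10% of barcodes richest in it held 64.6%, 90.9% and 65.2% of its UMIs. *Ogn*, *Aspn*, *Omd*, *Podn* and *Fmod* were at or under 21.6 CPM. In mgR 2 of 6 members were past 1.5-fold from WT (11.1% of genes were higher and 6.49% lower, 17.5% in all), *Ogn* on 18 UMIs in each library and *Aspn* on 1 WT UMI. In mgR-LOS 2 of 5 were past 1.5-fold from mgR (7.47% of genes were higher and 8.35% lower, 15.8% in all), *Dcn* at 2.16 (2.03 to 2.29) and *Lum* at 1.58 (1.25 to 1.99), and against WT 1 of 5, *Dcn* at 1.62 (12.1% of genes were higher and 8.5% lower, 20.6% in all). With barcodes assigned by cluster this *Dcn* ratio was 1.48. The *Dcn* ratio of mgR over WT, 0.752, was 0.493 with gate limits 2 times as high and 0.553 with barcodes of 200 or more genes, so the EC calls depend on which barcodes are counted. Markers of mural cells moved with the EC gate. Their 4-gene sum was 34.7 CPM in WT, 405 CPM in mgR and 345 CPM in mgR-LOS, with none of the 4 at 0, and *Rgs5* made up 16.8, 348 and 262 CPM of it. The summed SMC panel was at 1088, 1535 and 1670.3 CPM, and the summed fibroblast panel at 83.8, 42.6 and 67.5 CPM, of which *Pdgfra* was 68.2, 9.41 and 31.5 CPM. The part of such cells in the EC values was not tested. Barcodes past both the SMC and the EC panel, which the EC gate leaves out, numbered 5, 5 and 10.

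Barcodes outside these gates carried a further pattern. The mesothelial gate, of 12 WT, 29 mgR and 19 mgR-LOS barcodes, had *Dcn* at 3451, 3046 and 4355 CPM and *Fmod* at 528, 442 and 791 CPM, but *Lum* at 0, 14.1 and 33.8 CPM. In fibroblasts *Lum* exceeded *Fmod* in UMIs. Mesothelial *Podn* was at 100.2, 166 and 60.9 CPM, on 11, 59 and 9 UMIs, and mesothelial *Lum* rested on 0, 5 and 5 UMIs. The fibroblast gate had *Fmod* at 573, 293 and 336 CPM and *Podn* at 48.2, 107.0 and 117.2 CPM. On these few mesothelial barcodes the level was the higher one for *Fmod* in mgR and mgR-LOS, and for *Podn* in WT and mgR. Barcodes past both the SMC and the fibroblast panel numbered 66, 125 and 380, of which 38, 51 and 272 were called doublets, and they held *Dcn* at 5222, 3272 and 6109 CPM. Barcodes past no panel numbered 113, 490 and 274, or 2.11%, 6.07% and 2.15% of kept barcodes. They held 2.73%, 5.44% and 1.28% of all *Dcn* UMIs and 6.84%, 10.3% and 3.65% of all *Lum* UMIs of kept barcodes. The SMC and fibroblast values leave them out, so cells low in the marker panels are not described there.

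Single barcodes carried several members at once in fibroblasts and few in SMCs. At 1000 UMIs a fibroblast-gated barcode had on average 4.13 members in WT, 4.15 in mgR and 4.02 in mgR-LOS. An SMC-gated barcode had 2, 1.60 and 1.82, and the share with only 1 member was 27.3%, 52.6% and 36.7%. Among fibroblast-gated barcodes *Fmod* and *Prelp* were found together 1.75, 1.37 and 1.53 times as often as their shares would give if unrelated, and *Ogn* and *Aspn* 1.23, 1.26 and 1.26 times. *Ogn* and *Prelp* were found together 0.845, 0.924 and 0.846 times as often.

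Across 34 gate and panel groups of at least 50 barcodes in the 3 libraries, the level profiles of some members ran together. Pearson correlations of log2 CPM with 10 added were 0.97 for *Dcn* and *Lum*, 0.91 for *Aspn* and *Omd* and 0.90 for *Fmod* and *Lum*, and 0.27 for *Dcn* and *Ogn*, the lowest pair. These groups overlap, since a panel lies inside its gate, and share libraries, so the values describe likeness only. Among 9237 genes, the 2 most like each of 8 members were *Itm2a* and *Ctsk* for *Dcn*, *Aldh1a1* and *Mmp2* for *Lum*, *Ltbp3* and *Fbln5* for *Bgn*, and *Cntfr* and *Aldh1a1* for *Fmod*. They were *Podxl2* and *Rarres2* for *Ogn*, *Abi3bp* and *Syn3* for *Prelp*, *Nfatc4* and *Efs* for *Aspn*, and *Vkorc1* and *Tspan3* for *Omd*, with coefficients of 0.89 to 0.98 over these pairs.

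Genes that act with these proteoglycans were taken from fixed lists, and their counts stand against the same shares of all genes. In mgR over WT these were 4.95% higher and 3.65% lower in SMCs and 6.9% and 3.69% in fibroblasts, and in mgR-LOS over mgR 3.61% and 3.68% in SMCs. Of 10 listed collagen genes, those of collagen VI among them, 9 reached 20 CPM in SMCs, and 1 of them, *Col6a2*, was past 1.5-fold in mgR, at 0.666 of WT. None was higher, and *Col1a1* stood at 1.46. In mgR-LOS 3 of 9 were lower than in mgR, namely *Col5a2* at 0.579, *Col5a1* at 0.601 and *Col1a1* at 0.622. In fibroblasts *Col12a1* at 3.21 and *Col14a1* at 2.06 were the 2 of 10 that were higher in mgR. None of the 10 chondroitin and dermatan sulfate chain enzymes measured in SMCs was past 1.5-fold in mgR, and in mgR-LOS *Chsy1*, a chain polymerase, was at 0.632 of mgR. None of the 5 keratan sulfate enzymes reached 20 CPM in SMCs, and neither of the 2 measured receptors of decorin or biglycan (*Igf1r* and *Lrp1*) was past 1.5-fold there. Of 5 processing proteases and their helpers measured in SMCs 2 were higher in mgR, *Pcolce*, the enhancer of procollagen processing, at 3.33 and *Mmp2* at 2.01. The other settings used for the members were not applied to the listed genes, and the part of free RNA in these 2 ratios was not tested. In SMCs of mgR-LOS over mgR 1 of the 5 was higher and 2 were lower, with a median ratio of 0.747. In fibroblasts 3 of 6 were higher in mgR, *Adamts4* at 2.96, *Adamts5* at 2.20 and *Mmp14* at 1.78. Median mgR over WT ratios were 1.12 for the collagen genes and 1.41 for the proteases in SMCs, and 1.14 and 1.53 in fibroblasts, where that of all genes was 1.01.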

How the data were processed

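Single-cell suspensions were measured with a 3′ droplet kit (10x Genomics, v3.1). The authors deposited, for each library, unnormalized UMI counts, 1 value per gene and barcode. Matrix headers name CellRanger 5.0.1 for WT and mgR and 6.0.1 for mgR-LOS, whereas the submitters' processing notes name 6.0.1 for all, and the build was mm10. From these, sums per gate were computed (pandas 2.3.3, numpy 2.4.6) and expressed as CPM. A barcode took a gate where the share of its UMIs in exactly 1 panel reached a limit, per 10000 UMIs, of 150 (SMC), 40 (immune), 20 (red cells) or 10 (fibroblast, EC, mesothelial and Schwann). The limit of a fibroblast panel was 10 and that of an SMC panel 5. Limits were set after the panel distributions had been seen. Intervals used scipy 1.17.1, namely exact Poisson for levels, exact (Clopper-Pearson) binomial for shares and exact conditional binomial for ratios. A gene was called past 1.5-fold where its ratio reached 1.5 or its inverse with at least 20 CPM in either library, and figures were drawn with matplotlib 3.10.9. Thinning left out 5 WT, 2 mgR and 4 mgR-LOS SMC-gated barcodes. Doublets were scored with artificial doublets in scikit-learn 1.9.0. The barcodes with the highest scores were called, at a set rate of 0.8% per 1000 kept barcodes. This gave 230, 522 and 1295 called doublets, so these totals follow from the numbers of kept barcodes. Called doublets were kept in the main values. Clusters (scanpy 1.11.5, without the 9 genes) served as an alternative to the gates. All 9 members, the listed partner genes and, for 8 members, the 2 genes most like each were named (those for *Podn* are not reported here), and neighboring genes were named after their values had been seen. The members and lists were chosen with earlier results of these data known. The computations were tested on simulated data.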

Additional observations from a re-analysis of the deposited data

Results flagged for a closer look

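*Aspn* was the member that lay past 1.5-fold in opposite directions in 2 gates under the same comparison, mgR over WT. Its ratio was 17.1 (2.89 to 694) in EC-gated barcodes and 0.334 in SMC-gated barcodes. The EC ratio rested on 37 mgR UMIs and 1 WT UMI, and the difference between the gates was not tested. The immune-gated level of *Aspn* was 3.69 CPM in WT and 5.15 CPM in mgR, against 1.2 and 20.5 CPM in the EC gate. With barcodes assigned by their cluster the EC ratio was 2.73.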

How the results depend on the processing

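No paired analysis was possible because each group was a single library. Removing called doublets changed no call and moved no ratio by more than 1.18-fold. With at most 5% mitochondrial UMIs, *Dcn* in SMCs of mgR-LOS over WT turned from 1.72 to 0.974, *Lum* there fell to 1.12, and the members past 1.5-fold numbered 1 in SMCs of mgR-LOS over WT, 1 in ECs of mgR over WT and 2 in ECs of mgR-LOS over WT. With gate limits 2 times as high the counts were 3 in fibroblasts of mgR over WT, 0 in fibroblasts of mgR-LOS over mgR and 2 in ECs of mgR-LOS over WT, and with limits at 1/2 the count in ECs of mgR over WT was 0. Averaging barcodes took *Fmod* in fibroblasts of mgR-LOS over WT to 0.682 and gave counts of 3 in fibroblasts of mgR over WT and 2 in ECs of mgR-LOS over WT, as did cluster assignment for the latter (2, with *Dcn* at 1.48 inside the limits). In ECs, keeping barcodes with 200 or more genes gave 4 (mgR-LOS over mgR), 3 (mgR-LOS over WT) and 3 (mgR over WT, where *Dcn* was at 0.553, *Lum* at 0.511 and *Prelp* at 1.51), centring ratios gave 1 and subtracting the immune level 0 (both mgR over WT). With no CPM minimum the counts were 5, 4 and 4 in ECs of mgR over WT, mgR-LOS over mgR and mgR-LOS over WT and 5 in SMCs of mgR-LOS over WT. With a minimum of 100 CPM they were 0 in ECs of mgR over WT, 2 in SMCs and 0 in fibroblasts of mgR-LOS over mgR. The cause of each change was not tested. The limit on mitochondrial UMIs bears on SMCs, whose median share was 5.32% to 6.24%. In the main values no ratio was given where both libraries held 3 UMIs or fewer of a member, as for *Fmod* in ECs.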
